A study of Arabidopsis thaliana with 12 samples.

Results

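Chloroplast-encoded genes were followed in 2 prefoldin mutants of Arabidopsis thaliana. They were taken as every row whose locus ID begins with ATCG in either of the authors' deposited tables, which hold a comparison of each mutant with its wild type (WT). This gave 77 genes of 19710 in either table, of which 76 were in the 6x_pfd table, 66 in the pfd4 table and 65 in both. Another 56 of the 133 chloroplast loci with standard names were in neither table and are not analysed here. RNA came from whole seedlings of the ecotype Col-0 grown in vitro, with 3 samples in each of 4 groups. The sextuple mutant 6x_pfd and its WT were 7 days old and grown under the light regime labelled LL. The single mutant pfd4 and its WT were 14 days old, grown under LD and collected at ZT1, and the titles of both groups carry the word mock, although no treatment is described. The labels name no alleles. Genotype, age and light regime therefore differ together between the comparisons, and WT libraries are not shared between them. Prefoldin is a chaperone complex that hands unfolded proteins such as tubulin and actin to the cytosolic chaperonin. Its subunit gene PFD4 (AT1G08780) served as a check of the labels, with a mean of 31.1 normalized counts in 6x_pfd, against 427 in its WT, and of 104 in pfd4, against 411 in its WT. These and the other group means below are implied by the pooled mean and the fold change of the authors' deposited table.

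The chloroplast genome encodes core subunits of both photosystems, of the cytochrome b6f complex, of the ATP synthase and of the NDH complex, together with the large subunit of Rubisco and part of the plastid ribosome. The remaining subunits are encoded in the nucleus, made in the cytosol and imported into the chloroplast. Chloroplast genes are transcribed by a bacterial-type RNA polymerase, whose core is encoded in the chloroplast and whose sigma factors come from the nucleus, and by phage-type polymerases encoded in the nucleus. Many are read as long joint transcripts that are then cut, spliced and trimmed. Mature chloroplast transcripts mostly carry no poly(A) tail, and tails added in the organelle mark RNA for decay. Names and functions given here are the standard ones for these locus IDs, which the deposited tables do not pair with names.

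The libraries were made with a kit that selects mRNA by its poly(A) tail, so the values describe the chloroplast RNA that came through this selection and not its amount in the plant. The chloroplast rows made up 0.0731% of the table total in 6x_pfd, against 0.0347% in its WT, and 0.0311% in pfd4, against 0.0290% in its WT. A change in the amount of chloroplast RNA, a change in its capture, and a change in the number of chloroplasts or green cells cannot be told apart with these values. No values per library are in the tables, so the standard error (SE) of each log2 fold change is the only record of spread between samples. Chloroplast rows had larger SEs than nuclear genes of the same level. Between mean normalized counts of 100 and 300, the median SE in the authors' deposited table was 0.369 for 24 chloroplast rows and 0.170 for 3924 nuclear genes in the 6x_pfd comparison. In the pfd4 comparison it was 0.213 for 14 chloroplast rows and 0.176 for 4154 nuclear genes. Rows of the same libraries, and genes on the same transcript, share this variation, so calls on single chloroplast genes are not independent of each other.

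**Figure D1:**
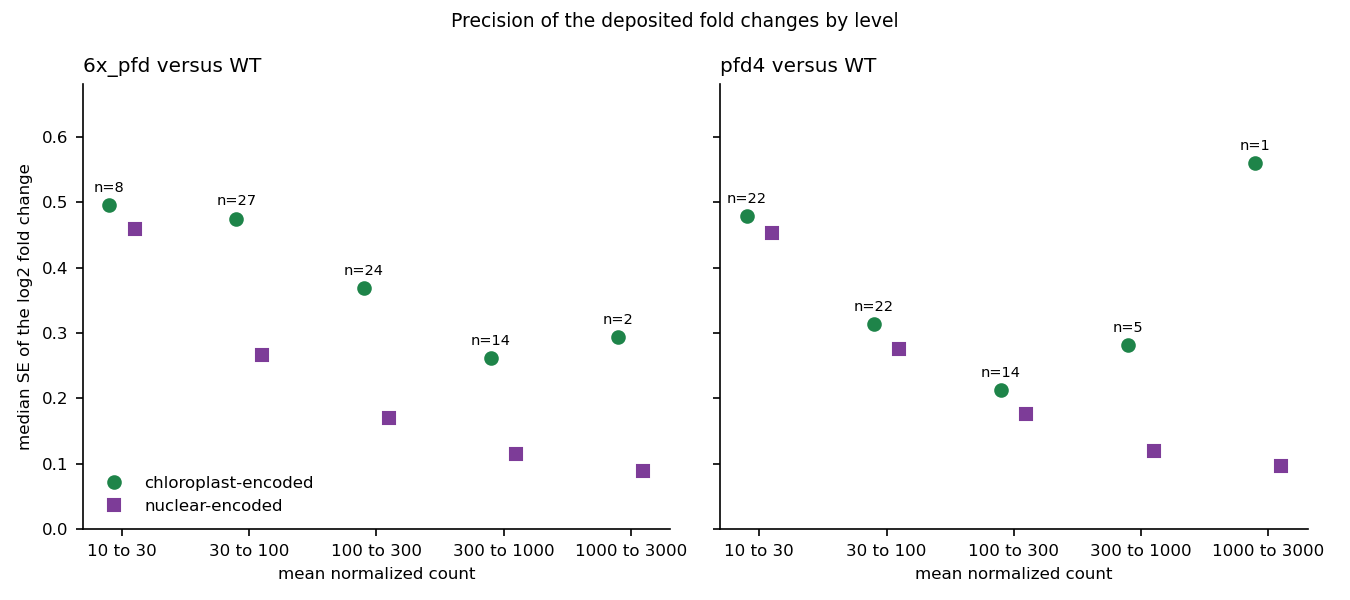
Median SE of the log2 fold change (y axis) by mean normalized count (x axis, ranges) for chloroplast-encoded genes (green circles, with their number n) and nuclear genes (purple squares), in the 6x_pfd comparison (left) and the pfd4 comparison (right). The green circles lie above the purple squares in each range, and the gap is widest in pfd4 for the single gene above 1000, psbA, with an SE of 0.560.

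Per kb of gene length, the highest levels in both experiments included psbA, for the D1 reaction centre protein of photosystem II, and rbcL, for the Rubisco large subunit. In the 6x_pfd experiment the 5 highest mean normalized counts per kb, over both genotypes, were 2857 for psaJ, 2669 for rpl32, 1755 for psbA, 1259 for rbcL and 894 for rpl14. In the pfd4 experiment they were 1538 for psbA, 1294 for rpl32, 1278 for psaJ, 672 for rbcL and 613 for psbJ. The genes psaJ, a small photosystem I subunit, and rpl32, a ribosomal protein, are short, with coding lengths of 0.135 and 0.159 kb, so their level per kb rests on few bases. This order describes RNA after poly(A) selection. Counts were low in general, with a median mean normalized count of 120 over the chloroplast rows of the 6x_pfd table, against 615 over all its rows, and of 56.6 in the pfd4 table, against 536 over all its rows.

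In 6x_pfd, chloroplast-encoded genes were higher than in WT across most functions. Of 76 rows, 49 rose and 0 fell at an adjusted p below 0.05 in the authors' deposited table (DESeq2). Of all 19380 genes tested in that comparison, 33.6% were called, 16.9% higher and 16.8% lower in 6x_pfd. The median log2 fold change of the 76 rows was 1.27, with a range of -0.34 to 3.02, against a median of 0.00 over all rows, and 74 of the 76 were above 0. Of the 49, 42 also had a log2 fold change of at least 1, a mark that 3.79% of all genes tested passed in that direction. Those 42 were 3.54% of the 1186 genes in the authors' deposited list of genes past both thresholds, while chloroplast rows were 0.392% of the table. That list holds the same genes as these thresholds give on the table, so it adds no separate support. A row passes the authors' minimum level more easily if it is high in the mutant. Among the 65 rows also listed in the pfd4 table, whose filter rested on other libraries, 40 were higher in 6x_pfd and the median log2 fold change was 1.19. The 8 rows trnK, rps2, rpoC2, ycf3, rps4, accD, ndhH and ycf1.2 had a WT level under 1 RPKM, as computed from the implied mean, the RefSeq gene length and the table total. Such rows may have passed the minimum through the mutant alone, so their calls give no support, and without them 41 of 68 rows were higher. The counts by function, by joint transcript and by strand below still include these rows. All of them but rpoC2 are also among the 42 above. The gene trnK stood under 1 RPKM in both groups, at 0.446 in 6x_pfd and 0.13 in WT, so this computed level is not the one the authors filtered on.

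In pfd4, 0 of the 66 chloroplast rows passed an adjusted p of 0.05 in either direction in the authors' deposited table (DESeq2), and 0 had an unadjusted p below 0.05. Of all 18363 genes tested in that comparison, 7.75% were called, 3.94% higher and 3.81% lower in pfd4. The smallest unadjusted p among the chloroplast rows was 0.0572, for atpE, with a log2 fold change of 0.33 ± 0.17 (SE) and an adjusted p of 0.286 in the authors' deposited table (DESeq2). The median log2 fold change was 0.08, and 42 rows lay above 0 and 24 below. The extremes were -0.57 ± 0.43 for psbL and 1.83 ± 1.11 for trnC (ATCG00200), a transfer RNA row with a mean normalized count of 3.94 that was in the pfd4 table only. The 95% interval of the log2 fold change lay within 1 of 0 for 41 of the 66 rows, so a change of 2-fold was outside the interval for those genes and inside it for the other 25.

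**Figure D2:**
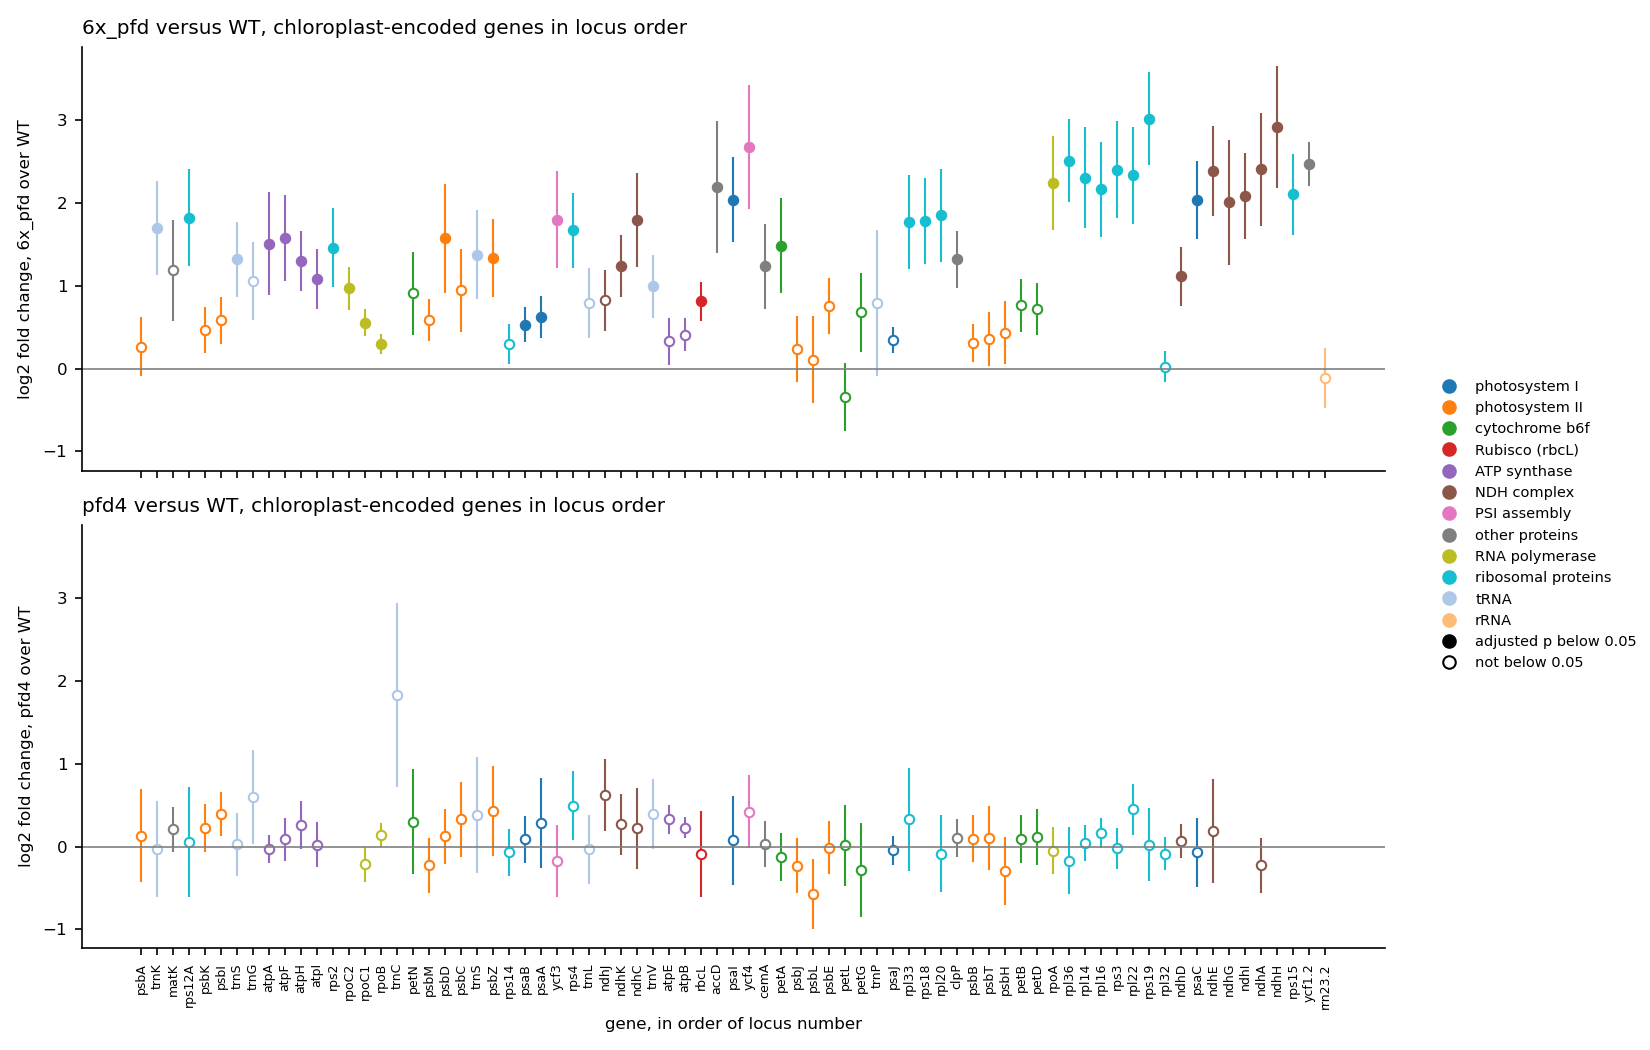
Log2 fold change of each chloroplast-encoded gene (y axis, mutant over WT, bars are the deposited SE) in order of locus number (x axis), for 6x_pfd (upper panel) and pfd4 (lower panel), coloured by function. Filled points passed an adjusted p of 0.05; they lie in the upper panel, with the highest values in the run of ribosomal protein genes up to rps19 at 3.02, and the lower panel holds none among the genes drawn. A few genes that are not reported are not drawn.

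Genes for the plastid RNA polymerase core were higher in 6x_pfd, by unequal amounts. The alpha subunit gene rpoA (ATCG00740) had an implied mean of 421 normalized counts in 6x_pfd and 88.9 in WT, a log2 fold change of 2.24 ± 0.57 with an adjusted p of 0.000471 in the authors' deposited table (DESeq2). For rpoB (ATCG00190), the beta subunit gene, the implied means were 470 in 6x_pfd and 383 in WT, and the log2 fold change was 0.30 ± 0.12 (adjusted p 0.0436, DESeq2, the authors' deposited table). The gene rpoC1, for the beta' subunit, stood at 0.55 ± 0.16 and rpoC2, for the beta'' subunit, at 0.97 ± 0.26 in that table, with DESeq2 adjusted p of 0.00327 and 0.00132. The computed WT level of rpoC2 was 0.774 RPKM, so its call and p give no support. The 3 genes with the smaller changes share a transcript, while rpoA follows the ribosomal protein genes in another. In pfd4 the 3 measured polymerase genes lay between -0.22 (rpoC1) and 0.14 (rpoB) in the authors' deposited table.

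Ribosomal protein genes formed the group with most calls in 6x_pfd, 15 of 17, against 16.9% of all genes tested called higher. Their median log2 fold change was 2.11. The highest was rps19 (ATCG00820), for a small-subunit protein, with implied means of 114 in 6x_pfd and 14.1 in WT and a log2 fold change of 3.02 ± 0.56 (adjusted p 8.83e-07, DESeq2, the authors' deposited table). Large-subunit genes included rpl36 at 2.52 ± 0.50, rpl22 at 2.34 ± 0.59, rpl14 at 2.31 ± 0.61 and rpl16 at 2.17 ± 0.57 in the authors' deposited table, each called higher. The small-subunit genes rps3 at 2.41 ± 0.59 and rps15 at 2.11 ± 0.49 were called higher too. Lower down the group, rpl20, rps12A, rps18, rpl33, rps4 and rps2 were called at log2 fold changes of 1.85, 1.83, 1.79, 1.77, 1.67 and 1.46. The calls of rps4 and rps2, whose WT level was under 1 RPKM, give no support. The 2 uncalled genes were rpl32, at 0.02 ± 0.19 with implied means of 427 in 6x_pfd and 421 in WT, and rps14, at 0.30 ± 0.24. The 95% interval of rpl32 ran from -0.35 to 0.39, which leaves out the values of the 15 called genes. In pfd4 the 14 measured ribosomal protein genes lay between -0.17 (rpl36) and 0.49 (rps4).

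Of 13 measured photosystem II genes, 2 were called higher in 6x_pfd, a share near the 16.9% of all genes tested, and the median log2 fold change was 0.47. The 2 were psbD (ATCG00270), for the D2 reaction centre protein, with implied means of 746 in 6x_pfd and 250.2 in WT and a log2 fold change of 1.58 ± 0.66 (adjusted p 0.0490, DESeq2, the authors' deposited table), and psbZ, a small subunit gene, at 1.33 ± 0.47 (adjusted p 0.0176, DESeq2). For psbA (ATCG00020) the implied means were 2035 in 6x_pfd and 1692 in WT, and its log2 fold change of 0.27 ± 0.36 did not pass (adjusted p 0.619, DESeq2, the authors' deposited table). The antenna protein genes psbC at 0.95 ± 0.50 and psbB at 0.31 ± 0.23 were not called either. The lowest of the group was psbL, a small subunit gene, at 0.11 ± 0.53. All 13 log2 fold changes were above 0. In pfd4 the group ran from -0.57 (psbL) to 0.43 (psbZ) in the authors' deposited table.

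Photosystem I genes were called higher in 6x_pfd in 4 of 5 cases, against 16.9% of all genes tested. Differences in size among them were not tested. The reaction centre genes psaA (ATCG00350) and psaB (ATCG00340) had implied means of 646 and 866 in 6x_pfd, against 418 and 599 in WT. Their log2 fold changes were 0.63 ± 0.26 and 0.53 ± 0.21 in the authors' deposited table. Both passed narrowly, with adjusted p of 0.0443 and 0.0383 (DESeq2). The iron-sulfur subunit gene psaC (ATCG01060) stood at 130.1 in 6x_pfd and 31.6 in WT, a log2 fold change of 2.04 ± 0.47 (adjusted p 0.000104, DESeq2, the authors' deposited table). The small subunit gene psaI stood at 2.04 ± 0.51 in that table. The uncalled gene psaJ had 0.34 ± 0.16. Both genes of photosystem I assembly were called higher, ycf4 at 2.67 ± 0.75 and ycf3 at 1.80 ± 0.58. The WT level of ycf3 was under 1 RPKM, so its call gives no support. In pfd4 the 5 subunit genes lay between -0.07 (psaC) and 0.28 (psaA), with ycf4 at 0.42 and ycf3 at -0.18 in the authors' deposited table.

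In the cytochrome b6f complex, which passes electrons between the photosystems, 1 of 6 genes was called higher in 6x_pfd, again near the 16.9% of all genes tested. This was petA (ATCG00540), for cytochrome f, with implied means of 405 in 6x_pfd and 144 in WT and a log2 fold change of 1.49 ± 0.58 (adjusted p 0.0325, DESeq2, the authors' deposited table). The genes petB, for cytochrome b6, and petD, for subunit IV, had 0.77 ± 0.32 and 0.72 ± 0.32 in that table, with adjusted p of 0.0506 and 0.0648 (DESeq2). The small subunit gene petL, at -0.34 ± 0.41, was the lowest chloroplast row in 6x_pfd. In pfd4 the 6 genes lay between -0.28 (petG) and 0.30 (petN). The Rubisco large subunit gene rbcL (ATCG00490) was called higher in 6x_pfd, at 2312 against 1315 in WT, and its log2 fold change was 0.81 ± 0.23 (adjusted p 0.00224, DESeq2, the authors' deposited table). In pfd4 it was at 937 against 998 in WT, at -0.09 ± 0.52.

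In 6x_pfd, 4 of 6 ATP synthase genes were called higher, against 16.9% of all genes tested, and the 4 were on the same transcript. No test was made between the transcripts, and atpA passed narrowly (adjusted p 0.0457, DESeq2, the authors' deposited table). The genes of the atpI cluster were the called ones, atpF at 1.58 ± 0.52, atpA at 1.51 ± 0.62, atpH at 1.298 ± 0.36 and atpI at 1.08 ± 0.36 in the authors' deposited table. The gene atpA, for the alpha subunit, had implied means of 714 in 6x_pfd and 250.2 in WT. The genes of the other transcript, atpB for the beta subunit and atpE for the epsilon subunit, had 0.41 ± 0.20 and 0.33 ± 0.28 and were not called (adjusted p 0.0992 for atpB, DESeq2, the authors' deposited table). In pfd4 the 6 genes lay between -0.03 (atpA) and 0.33 (atpE).

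NDH genes encode subunits of the complex that feeds electrons back into the plastoquinone pool. In 6x_pfd 8 of 9 were called higher, against 16.9% of all genes tested, with a median log2 fold change of 2.01. The highest was ndhH (ATCG01110), at 226 in 6x_pfd against 29.9 in WT, a log2 fold change of 2.92 ± 0.74 (adjusted p 0.000476, DESeq2, the authors' deposited table). It was followed by ndhA at 2.41 ± 0.68, ndhE at 2.39 ± 0.55, ndhI at 2.09 ± 0.52, ndhG at 2.01 ± 0.76 and ndhC at 1.80 ± 0.57 in that table. The genes ndhK at 1.24 ± 0.38 and ndhD at 1.11 ± 0.36 completed the called members, and ndhJ at 0.83 ± 0.37 did not pass (adjusted p 0.0682, DESeq2). Of the 9, ndhG, ndhH and ndhI were in the 6x_pfd table only, and ndhH had a computed WT level under 1 RPKM (the highest value among the others was that of ndhA). In pfd4 the 6 measured NDH genes lay between -0.23 (ndhA) and 0.62 (ndhJ) in the authors' deposited table.

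The remaining protein genes were called higher in 6x_pfd in 4 of 5 cases, against 16.9% of all genes tested. The smallest adjusted p of the whole set, 5.82e-19 (DESeq2), belonged to ycf1.2 (ATCG01130), for a protein of the inner envelope, with implied means of 968 in 6x_pfd and 174 in WT and a log2 fold change of 2.48 ± 0.27 in the authors' deposited table. It overlaps the inverted repeat, which holds a second copy of its sequences, and it was in the 6x_pfd table only. Its computed WT level was 0.976 RPKM, against 5.73 in 6x_pfd, so its call and this p give no support. The same holds for the call of accD, with a computed WT level of 0.682 RPKM. The gene accD, for a subunit of the plastid acetyl-CoA carboxylase, stood at 2.196 ± 0.79, clpP, for the protease ClpP, at 1.32 ± 0.34 and cemA, for an envelope membrane protein, at 1.24 ± 0.51, each called in that table. The splicing maturase gene matK had 1.19 ± 0.61 and was not called (adjusted p 0.127, DESeq2). It lies within the intron of trnK on the same strand, with 1515 shared bases, and the sources used here do not state to which gene such reads were counted. In pfd4 the 3 measured genes of this kind lay between 0.03 (cemA) and 0.21 (matK).

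Transfer RNA rows rose in 4 of 7 cases in 6x_pfd, beside 16.9% of all genes tested called higher. They were trnK (ATCG00030) at 1.70 ± 0.56, trnS (ATCG00290) at 1.38 ± 0.54, trnS (ATCG00090) at 1.32 ± 0.45 and trnV (ATCG00450) at 0.998 ± 0.38 in the authors' deposited table. The WT level of trnK was under 1 RPKM, so its call gives no support. No gene length was available for the trnS and trnV rows, so their RPKM was not computed. The lowest log2 fold change was that of trnP (ATCG00620), at 0.80 ± 0.88. Mean normalized counts of the 7 rows were between 6.77 and 60.7. The ribosomal RNA row rrn23.2 (ATCG01180), which lies in the inverted repeat, had implied means of 115 in 6x_pfd and 125 in WT, with a log2 fold change of -0.11 ± 0.37 that was not called.

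**Figure D3:**
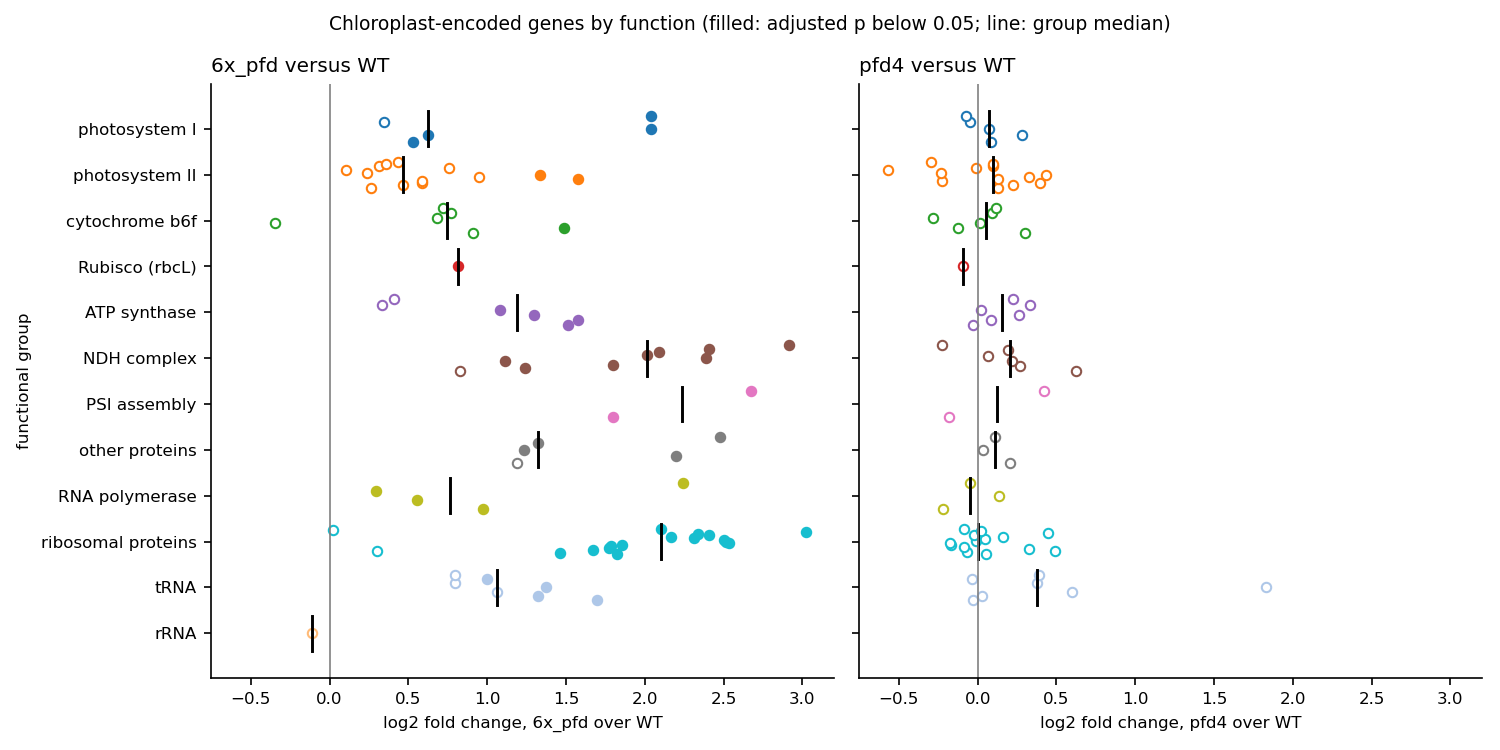
Log2 fold change (x axis, mutant over WT) of chloroplast-encoded genes grouped by function (y axis), in 6x_pfd (left) and pfd4 (right); each point is a gene, filled where the adjusted p was below 0.05, and black lines are group medians. In 6x_pfd the medians of the protein groups run from 0.47 in photosystem II to 2.11 in ribosomal proteins and 2.24 in the 2 assembly genes. The single ribosomal RNA row lies at -0.11. In pfd4 the medians of the protein groups stay between -0.09 and 0.21.

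Set together, genes of the photosystems, the cytochrome b6f complex and Rubisco were called higher in 6x_pfd in 8 of 25 cases, with a median log2 fold change of 0.63. The other protein-coding genes were called in 37 of 43 cases, with a median of 1.80. Both counts stood against the 16.9% of all genes tested that were called higher. The 43 include rps2, rpoC2, ycf3, rps4, accD, ndhH and ycf1.2, whose WT level was under 1 RPKM and whose calls give no support. The 25 include none of these rows. No test was made between these sets, which were formed with the values known and whose members share transcripts. Of the summed chloroplast counts, photosystem II genes took 21.8% in 6x_pfd and 29.2% in WT. Ribosomal proteins took 17.1% in 6x_pfd and 11.1% in WT, and NDH genes 7.54% in 6x_pfd and 4.34% in WT. In pfd4 the photosystem II share was 32.8%, against 31.9% in WT.

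The fold changes in 6x_pfd were also read by joint transcript. A total of 14 units of adjacent genes on the same strand, known to be transcribed jointly, were compared. These units were drawn up after the values were seen. Their counts stand beside 16.9% of all genes tested called higher in 6x_pfd. In the unit from rpl23 to rpoA, 9 genes were measured and 9 rose, with log2 fold changes of 2.17 to 3.02 in the authors' deposited table. The unit from rps15 to ndhD had 8 of 8 genes higher, from 1.11 (ndhD) to 2.92 (ndhH), with psaC among them at 2.04. The unit from accD to petA had 5 of 5 higher, from 1.24 (cemA) to 2.67 (ycf4). Likewise 5 of 5 genes from rps2 to atpA rose, between 1.08 and 1.58, and 3 of 3 from rpl20 to clpP, between 1.32 and 1.85. The unit from rpoB to rpoC2 had 3 of 3 higher, between 0.30 and 0.97. Of the genes in these units, ndhH, accD, rps2 and rpoC2 had a WT level under 1 RPKM, so their calls give no support.

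In 4 units 2 of 3 genes were called. The unit psbD to psbZ lay between 0.95 (psbC, uncalled) and 1.58, the unit ndhC to ndhJ between 0.83 (ndhJ, uncalled) and 1.80, and the unit psaA to rps14 between 0.30 (rps14, uncalled) and 0.63 in the authors' deposited table. The last of the 4, psaJ to rps18, had psaJ at 0.34 ± 0.16 uncalled beside rpl33 at 1.77 ± 0.57 and rps18 at 1.79 ± 0.52, both called. In the unit from psbB to petD, 0 of 5 genes were called, with log2 fold changes of 0.31 (psbB) to 0.77 (petB) in the authors' deposited table. The units psbE to psbJ, psbK to psbI and atpB to atpE had 0 of 3, 0 of 2 and 0 of 2 genes called. In pfd4 the unit from rpl23 to rpoA lay between -0.17 and 0.45 and the unit from psbB to petD between -0.30 and 0.11.

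**Figure D4:**
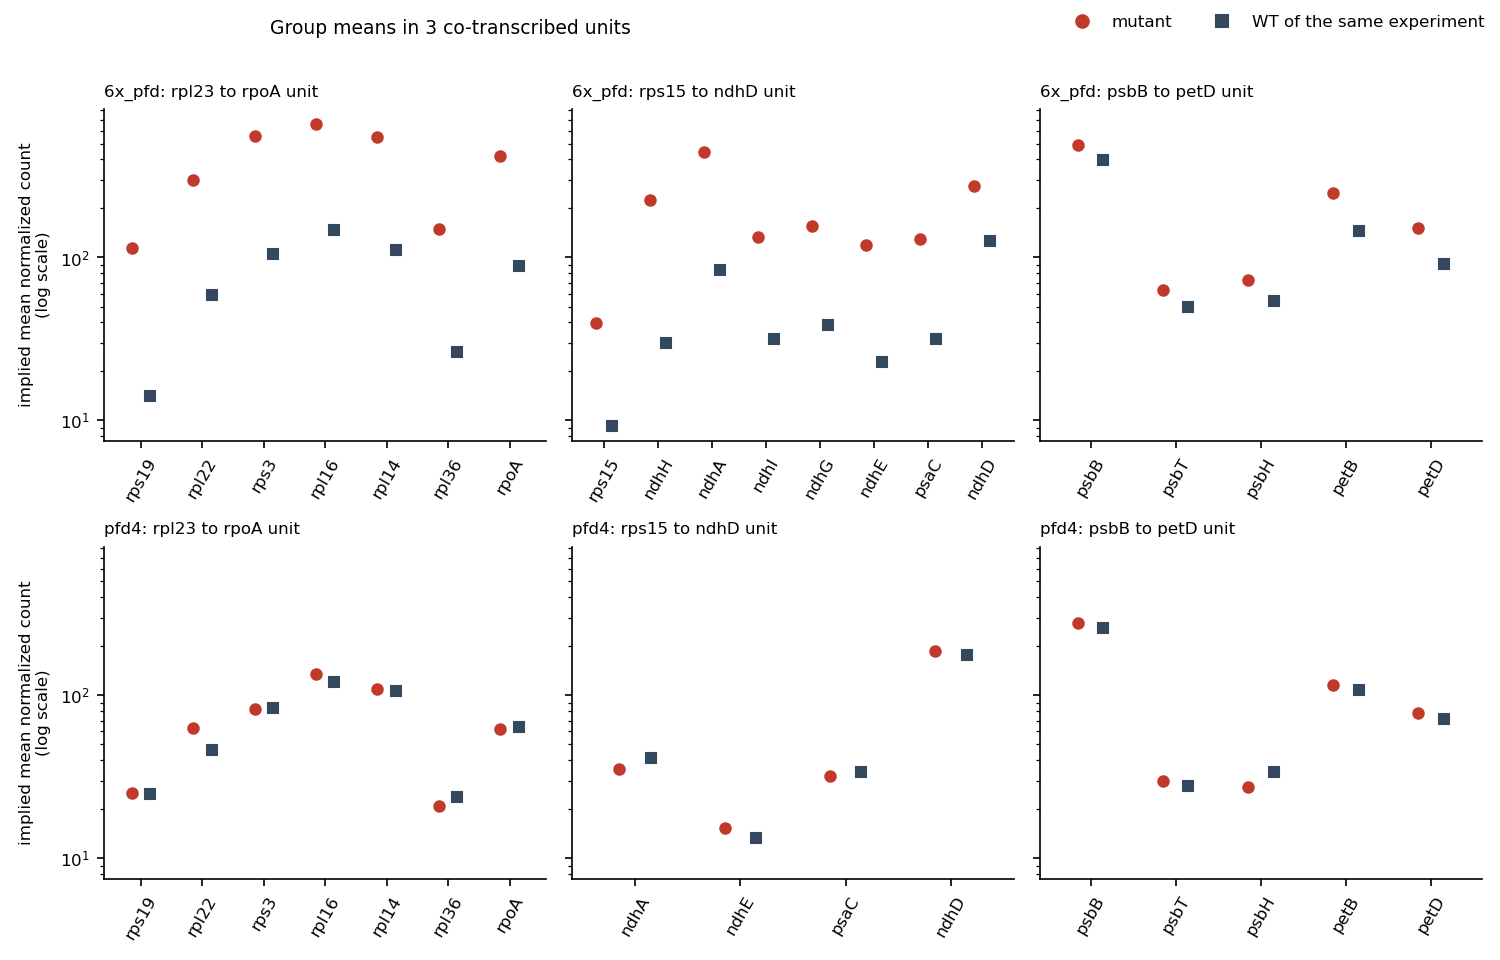
Implied mean normalized counts (y axis, log scale) of the reported genes in 3 joint transcripts, in transcript order on the x axis, mutant as red circles and the WT of the same experiment as blue squares, 6x_pfd in the upper row and pfd4 in the lower row. In the upper row rps19 stood at 114 in 6x_pfd and 14.1 in WT and psbB at 491 in 6x_pfd and 396 in WT, while the pairs of the lower row lie close together; the tables give no error for group means.

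The difference between the mutant effects was tested gene by gene for the 65 chloroplast genes in both tables. The log2 fold change was larger in 6x_pfd than in pfd4 for 63 of them, by a median of 0.98. The difference passed an adjusted p of 0.05 (two-sided Wald test, Benjamini-Hochberg over 18035 genes) for 20 genes, all larger in 6x_pfd, and 11.8% of all genes tested passed in that direction. For rps19 the difference was 3.001 ± 0.72 (SE), with an adjusted p of 0.000327 by this Wald test across all genes. Over the 65 genes, the Pearson correlation of the 6x_pfd and pfd4 log2 fold changes was 0.065, a description over genes that share libraries within each comparison. Since age and light regime differ along with genotype, these differences cannot be assigned to the genotype.

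Nuclear genes for the photosystems and the plastid ribosome were mostly lower in 6x_pfd. The counts that follow stand beside 16.9% of all genes tested called higher and 16.8% called lower. Of 12 nuclear photosystem I subunit genes, 0 were higher and 12 lower in the authors' deposited table. Their median log2 fold change was -0.95, where the chloroplast genes had a median of 0.63. The nuclear gene PSAF (AT1G31330), for the plastocyanin docking subunit, was at 24282 in 6x_pfd against 73125 in WT, a log2 fold change of -1.59 ± 0.07 (adjusted p 1.43e-118, DESeq2, the authors' deposited table). PSAD-2 at -1.51 ± 0.08, PSAO at -1.07 ± 0.07 and PSAN at -1.23 ± 0.09 also fell. Of 11 nuclear photosystem II genes, 10 fell and 0 rose, with a median of -0.65, led by PSBW at -1.06 ± 0.07, PSBQ-2 at -1.04 ± 0.08, PSBP-1 at -0.91 ± 0.09 and PSBY at -0.80 ± 0.09. Of 32 nuclear genes for plastid ribosomal proteins, 26 fell and 0 rose, with a median of -0.38, where the chloroplast ribosomal genes had 2.11. Examples were AT5G65220 and RPL21C, both at -0.56. Of 4 nuclear NDH genes, NdhN at 0.40 ± 0.13 and NdhO at 0.35 ± 0.10 rose. Of 4 nuclear genes for ATP synthase and cytochrome b6f, 1 fell, ATPD at -0.53 ± 0.12, and of 4 Rubisco small subunit genes 0 passed in either direction. The differences between the sets were not tested.

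**Figure D5:**
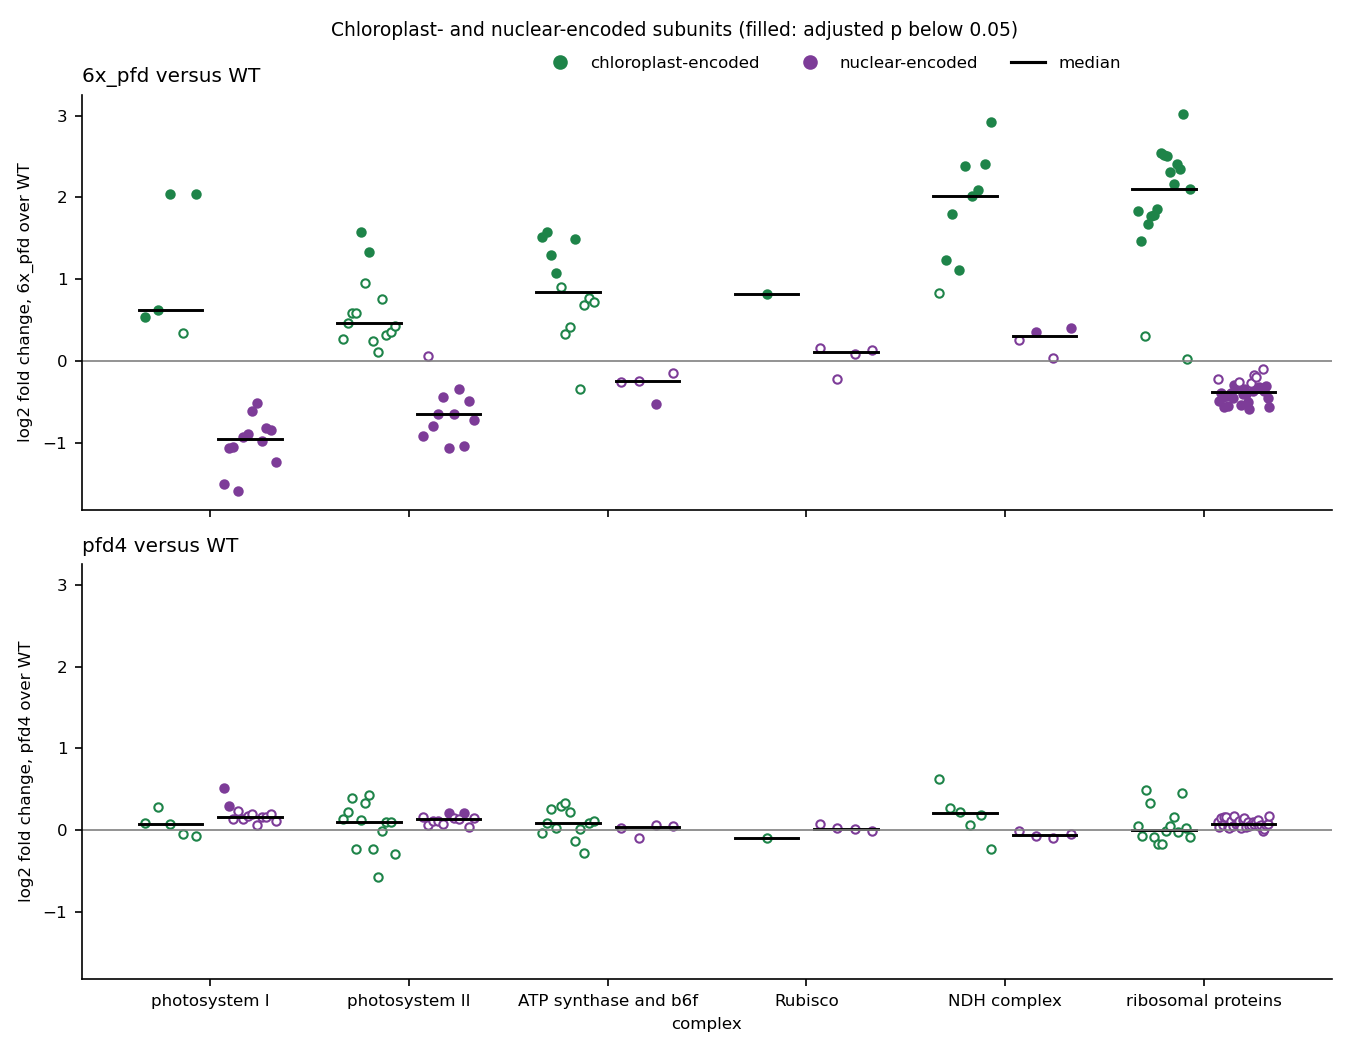
Log2 fold change (y axis, mutant over WT) of chloroplast-encoded (green) and nuclear-encoded (purple) subunits of 6 complexes (x axis), in 6x_pfd (upper panel) and pfd4 (lower panel); points are genes, filled where the adjusted p was below 0.05, and black lines are medians. In 6x_pfd the photosystem I medians are 0.63 for chloroplast and -0.95 for nuclear genes, and in pfd4 they are 0.07 and 0.16.

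In pfd4, some nuclear photosystem genes were called higher, where 3.94% of all genes tested were called in that direction. All 12 photosystem I and all 11 photosystem II log2 fold changes were above 0, with medians of 0.16 and 0.14. Of these genes, 9 and 4 had an unadjusted p below 0.05 (DESeq2, the authors' deposited table). No test was made on the sets. Of 12 photosystem I genes 2 rose, PSAD-2 at 0.51 ± 0.09 and PSAO at 0.29 ± 0.07, and of 11 photosystem II genes 2 rose, PSBQ-2 and PSBW, both at 0.21, in the authors' deposited table. Among the nuclear genes for plastid ribosomal proteins, NDH, Rubisco and the set of ATP synthase and cytochrome b6f, 0 were called in either direction.

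The nuclear genes that transcribe the chloroplast genome or process its RNA were listed apart. Their counts in 6x_pfd stand beside 33.6% of all genes tested called in either direction, and those of the polymerase-associated and the RNA processing lists were near or below the share of all genes. The 3 phage-type polymerase genes were higher in 6x_pfd, namely SCA3 (AT2G24120), the plastid enzyme RPOTp, at 0.33 ± 0.09, AT5G15700, the enzyme shared by plastids and mitochondria, at 0.53 ± 0.11, and MGP3 (AT1G68990), the mitochondrial enzyme, at 0.49 ± 0.09 in the authors' deposited table. In pfd4, AT5G15700 at -0.42 ± 0.14 and MGP3 at -0.37 ± 0.11 fell, and SCA3 at -0.16 ± 0.13 was not called. Of 6 sigma factor genes, SIG4 at 0.73 ± 0.14 and SIGC at 0.29 ± 0.10 rose and SIGA at -0.45 ± 0.10 and SIGE at -0.38 ± 0.09 fell in 6x_pfd, and SIGE fell in pfd4 at -0.50 ± 0.14. Of 12 genes for proteins associated with the bacterial-type polymerase, PTAC7 at -0.35 ± 0.11 and TRX z at -0.31 ± 0.11 fell in 6x_pfd and 0 were called in pfd4. Of 15 genes for chloroplast RNA processing and stability, CRR2 at 0.37 ± 0.12 rose and HCF107 at -0.49 ± 0.09, CSP41A at -0.48 ± 0.11 and RBP31 at -0.31 ± 0.11 fell in 6x_pfd, and 0 were called in pfd4.

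Markers of leaf and root cells, and the other organelle, were read beside these results. The counts stand beside 16.9% of all genes tested called higher and 16.8% called lower in 6x_pfd. In pfd4 these shares were 3.94% and 3.81%. Of 3 leaf markers, CAB1 at -1.03 ± 0.10 fell in 6x_pfd and 0 rose, and the range was -1.03 to 0.30 in the authors' deposited table. Of 6 root markers, PRP3 at 0.96 ± 0.16, EXPA7 at 0.60 ± 0.16 and SHV2 at 0.52 ± 0.17 rose and 0 fell in 6x_pfd, while 2 of 5 measured fell in pfd4, among them CASP2 at -0.66 ± 0.16. The part of cell composition in the chloroplast values was not tested. Mitochondria-encoded rows, whose transcripts also mostly lack poly(A) tails, were called in 0 of 11 cases in 6x_pfd, with 0 at an unadjusted p below 0.05 and a median log2 fold change of 0.08 in the authors' deposited table (DESeq2). Their values ran from -1.42 to 0.96, and the 95% interval lay within 1 of 0 for 3 of the 11. They made up 0.0339% of the table total in 6x_pfd and 0.0310% in its WT. Most of their summed mean normalized count of 10492 came from ATMG00020 at 6942 and ATMG01390 at 3351. The highest of the other rows was ATMG00160 at 34.8, so this share says little about those rows. In pfd4, 0 of 12 mitochondria-encoded rows were called, where 7.75% of all genes tested were called in either direction. Among the 12, 0 had an unadjusted p below 0.05, and the median was 0.30. With so few rows, this count is not read as a result about them.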

How the data were processed

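Poly(A)-selected RNA of 12 whole-seedling samples was sequenced. The submitters' processing notes name cutadapt, HISAT2, HTSeq and DESeq2 as the authors' tools and TAIR10 as their build, without versions. For each gene the authors deposited the mean normalized count, a signal pooled over both genotypes. They also deposited the log2 fold change of mutant over WT, with its SE and Wald score, and the Wald p-value raw and adjusted, per the file headers. The table names state a minimum RPKM. Library depth and values per library are not in the tables, so no count model was fitted. P-values weigh the fold change against the SE of 3 samples a group, which the series' design text calls biological.

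Group means were computed from the mean and the fold change, taking groups as equal in size. The difference test used SciPy 1.17.1 and was tested on simulated data. Values were handled with Python 3.11.15, pandas 2.3.3 and numpy 2.4.6 and drawn with matplotlib 3.10.9. Rows without a p-value (3 in the pfd4 table, 17 in the 6x_pfd table) were left out of tests. Gene lengths and nuclear gene names came from RefSeq (assembly TAIR10.1), used for 70 of the 77 genes and for 111 nuclear genes in 12 lists. Chloroplast names were written from general knowledge of the locus IDs and then compared with RefSeq, where 83 of 83 protein-coding genes came in the same order and 6 locus IDs appear in notes. Genes, lists and tests were chosen with earlier results of these data known. A few genes are not reported by name here. Other chloroplast rows called were named, and otherwise the extremes of each functional group, the 5 highest levels, and up to 4 called genes per nuclear list. Further chloroplast genes named were picked after their values were seen. Alternatives are given at the end.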

Additional observations from a re-analysis of the deposited data

Results flagged for a closer look

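For 20 of the 65 chloroplast genes in both tables, the log2 fold change in 6x_pfd differed from that in pfd4 by the Wald test of the difference (two-sided, adjusted over all 18035 genes). Each was larger in 6x_pfd, and 11.8% of all genes tested passed in that direction. Age and light regime differ together with genotype, so they cannot be told apart in these values, and no explanation was tested.

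The 9 measured genes from rpl23 to rpoA were among them, including differences of 3.001 for rps19, 2.69 for rpl36, 2.43 for rps3, 2.29 for rpoA, 2.26 for rpl14, 2.01 for rpl16 and 1.89 for rpl22. In the unit from rps15 to ndhD the difference was 2.64 for ndhA, 2.197 for ndhE, 2.11 for psaC and 1.05 for ndhD. For the photosystem I genes of the accD unit it was 2.25 (ycf4) and 1.97 (psaI). It was 1.98 for ycf3, 1.94 for rpl20, 1.49 for atpF, 1.21 for clpP and 0.77 for rpoC1.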

How the results depend on the processing

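In 6x_pfd the number of chloroplast rows called higher, 49 of 76, was 27 of 40 with a minimum mean normalized count of 100 and 34 at an adjusted p below 0.01. It was 57 with both genotypes set to equal table totals (a shift of -0.08 log2), 49 when centred on the median of all rows, 48 of 74 without the inverted repeat, and, in checks added after the data were seen, 45 of 68 without RNA genes and 41 of 68 without the rows under 1 RPKM in WT. It was 37 of 61 when rows with no gene length were left out as well. The number called lower was 0 under each of these. In pfd4, 0 were called in either direction under each alternative run. The number of differences between the mutant effects, 20, was 10 at an adjusted p below 0.01 and 23 with equal totals. At an adjusted p below 0.01, 15 single genes lost their call in 6x_pfd, and with equal totals 8 gained it. Per kb of coding length, rpl16, a gene with an intron, stood at 989 in the 6x_pfd experiment, above rpl14, and the 4 genes above it were the same. No alternative run reversed a direction among called values.

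No paired analysis was possible because the deposited tables hold no values per library. The planned fits with a replicate block and without each replicate in turn were not run for the same reason, so a single library that sets these values would not be seen. Low counts limit the smaller genes, and poly(A) selection limits all levels given.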

Other observations

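Strand of the chloroplast genome, known for 67 of the rows in the 6x_pfd table, went along with the calls. On the strand that RefSeq calls minus, 34 of 44 genes were higher in 6x_pfd, with a median log2 fold change of 1.55. On the plus strand 10 of 23 were higher, with a median of 0.81. Both counts stand beside 16.9% of all genes tested called higher. They include rows with a WT level under 1 RPKM, whose calls give no support. Among these are rps2, rpoC2 and ndhH on the minus strand and accD on the plus strand. In pfd4 the medians were 0.05 on the minus strand and 0.10 on the plus strand, with 0 called on either. The strands hold different units, among them those from rpl23 to rpoA and rps15 to ndhD on the minus strand and the unit from psbB to petD on the plus strand, so strand, unit and function cannot be told apart. The comparison was made after the values were seen and was not tested.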
